A study of Mus musculus with 12 samples.

Results

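Complex I, the NADH dehydrogenase at the entry of the respiratory chain, is built from nuclear-encoded subunits and from subunits encoded in mitochondrial DNA (mtDNA). The genes examined here are the 7 that mouse mtDNA contributes: mt-Nd1, mt-Nd2, mt-Nd3, mt-Nd4, mt-Nd4l, mt-Nd5 and mt-Nd6. They were taken by these symbols from the deposited count table, 7 of its 53762 entries, and all 7 passed the filter on low counts in every comparison. Bulk RNA-Seq had been performed on spleen T cells in 12 libraries, 3 in each of 4 groups of genotype and stimulation. The study asked how PERK, a sensor of endoplasmic reticulum stress encoded by Eif2ak3, acts in T cells that meet alloantigen, and it also examined their mitochondria and metabolism. WT T cells were compared with T cells of PERK-cKO mice, on the C57BL/6 background, in which PERK fl/fl is deleted by a Cre driven from the CD4 promoter and thus in T cells (the labels write PERK-KO). The WT allogeneic and PERK-cKO allogeneic groups had been cultured for 4 days with APCs (antigen-presenting cells) from an allogeneic donor. The WT polyclonal and PERK-cKO polyclonal groups had been activated through CD3 and CD28 with antibodies, over 3 days by the series' own design text. The study's legend gives 4 days for both. If the design text holds, stimulus and time cannot be told apart. Whether the 3 libraries of a group came from separate mice is not given in the sources used here, and p-values then measure only the spread between libraries, which may be technical.

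Complex I oxidizes NADH, passes the electrons to ubiquinone and moves protons across the inner mitochondrial membrane. The mtDNA-encoded subunits form the core of its membrane arm. ND2, ND4 and ND5 are the large antiporter-like subunits along which protons are moved. ND1 lies at the heel of the enzyme and helps to form the ubiquinone site, and the small subunits ND3, ND4L and ND6 lie between that site and the pumps. Mammalian mtDNA is transcribed from both strands into long RNAs that are cut, mostly at tRNAs, into mRNAs, most but not all of which carry a single gene. The level of each mRNA therefore depends on its processing and decay as well as on shared transcription. T cells enlarge their mitochondria and respiration when they are activated.

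The genes lie on chromosome M at positions that are the same in GRCm39, the build of the deposited table, and in GRCm38. Each is annotated as a single protein-coding exon. In these coordinates mt-Nd1 lies at chrM:2751-3707, mt-Nd2 at chrM:3914-4951, mt-Nd3 at chrM:9459-9806, mt-Nd4l at chrM:9877-10173, mt-Nd4 at chrM:10167-11544 and mt-Nd5 at chrM:11742-13565, all on the + strand. Only mt-Nd6, at chrM:13552-14070, lies on the − strand among the 7. The first 30 bases of each gene are shown to compare their starts, 5′ to 3′ along the gene's own strand, from the GENCODE M21 transcripts. Capitals mark the first codon, which is ATG in 3 of the 7.
mt-Nd1: GTGttctttattaatatcctaacactcctc
mt-Nd2: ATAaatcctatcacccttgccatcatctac
mt-Nd3: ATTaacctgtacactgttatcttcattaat
mt-Nd4l: ATGccatctaccttcttcaacctcaccata
mt-Nd4: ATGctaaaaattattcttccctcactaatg
mt-Nd5: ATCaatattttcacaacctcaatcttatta
mt-Nd6: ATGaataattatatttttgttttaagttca

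Neighbouring genes share bases, and this bears on the counts. mt-Nd4l and mt-Nd4 overlap on the same strand, so their values need not be independent readings. The whole of mt-Nd4l, 297 bases, is shown because its last 7 bases, in capitals, are also the first 7 of mt-Nd4, whose start codon lies in them.
mt-Nd4l: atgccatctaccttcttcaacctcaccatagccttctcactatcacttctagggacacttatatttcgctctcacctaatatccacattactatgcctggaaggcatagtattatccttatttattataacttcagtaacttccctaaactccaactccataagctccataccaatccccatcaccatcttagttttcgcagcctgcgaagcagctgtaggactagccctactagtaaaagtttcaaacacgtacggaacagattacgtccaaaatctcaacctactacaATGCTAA
The ends of mt-Nd5 and mt-Nd6 meet on opposite strands. The 60 bases at chrM:13529-13588 are shown on the + strand, and the 14 bases in capitals belong to both genes.
mt-Nd5 and mt-Nd6: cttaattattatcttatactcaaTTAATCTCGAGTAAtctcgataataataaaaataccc
The authors' counting did not use strand, so a read from the opposite strand within the span of a gene was counted for it, and the counts on mt-Nd6 can hold RNA of the other strand. Composition sets mt-Nd6 apart. On its own strand it held 28.1% G and 5.97% C, whereas the other 6 held 8% to 11.6% G and 22.1% to 30% C. mt-Nd4 has 1378 bases, 1 more than a multiple of 3, so that it ends within a codon. Mammalian mtDNA leaves several such ends, which are completed when the mRNA is polyadenylated.

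Nuclear copies of mtDNA can bear on what was counted, since the counting defaults leave out pairs that the aligner reports at several places. Stretches of 100 bases were therefore looked up in all other annotated transcripts. Of the stretches in mt-Nd4l, 98.5% recurred letter for letter in Gm10222. The same held for 97.6% of mt-Nd3 in Gm28438, 60.8% of mt-Nd4 in Gm28439 and 3.19% of mt-Nd2 in Gm13339. No stretch of mt-Nd1, mt-Nd5 or mt-Nd6 recurred. Outside complex I, mt-Co2, mt-Co3 and mt-Atp6 shared 99.5%, 99.9% and 99.5% of their stretches, and mt-Atp8 shared 0. CPM are counts divided by library size and set to a common base. In WT allogeneic libraries mt-Nd3 and mt-Nd4l averaged 2285 and 4253 CPM per kb, the lowest of the 7. There mt-Co2, mt-Co3 and mt-Atp6 averaged 12842, 10519 and 11619.6. mt-Atp8, 204 bases long and overlapping mt-Atp6, averaged 503. How many pairs the copies cost each gene was not tested.

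Each library held 3132702 to 4631908 counts, of which 9.31% to 15.01% lay on chromosome M and 2.22% to 4.49% on the 7 genes. At this depth the 95% Wilson interval of the latter share reached at most 0.0217 percentage points to either side, for counting error only. WT polyclonal replicate 1 stood apart, with 13.6% of its chromosome M counts on the mitochondrial rRNAs against 3.82% to 6.51% in the other 11. Nuclear genes were read as placed counts, which are explained with the nuclear subunits, because the build of the counting differs from that of the alignment. Eif2ak3 had 121 to 155 placed counts in PERK-cKO allogeneic and 167 to 173 in WT allogeneic libraries (log2 fold change −0.49, edgeR adjusted p = 0.00780). After polyclonal stimulation it had 76 to 116 against 85 to 152 (log2 fold change −0.36, edgeR adjusted p = 0.171). Groups also differed beyond their labels. Summed over 4 genes of the Y chromosome (Uty, Kdm5d, Ddx3y, Eif2s3y) there were 3335 to 4716 placed counts in WT allogeneic libraries and 0 in the remaining 9.

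Markers of other cells were read in the same way, as CPM summed over each list. The macrophage and monocyte markers, 4 of 12 with placed counts (Lyz2 and C1qc among them), reached 1515 to 1715 CPM in PERK-cKO allogeneic and 221 to 255 in WT allogeneic libraries, against 99.6 to 130.4 and 93.6 to 105 in the PERK-cKO and WT polyclonal libraries. Lyz2 and C1qc were at 0 in the WT polyclonal libraries. Basophil and mast cell markers, 6 of 8, reached 2875 to 3071 CPM in PERK-cKO allogeneic against 132 to 148 in WT allogeneic libraries. The polyclonal libraries held 28.6 to 33.8 CPM of them in PERK-cKO and 3.49 to 6.88 in WT. T cell markers, of which 5 of 16 had placed counts (Thy1, Lck, Cd5, Cd6 and Cd8b1), reached 4808 to 5312 CPM in PERK-cKO allogeneic, 5389 to 5491 in WT allogeneic, 4571 to 4829 in PERK-cKO polyclonal and 3368 to 3562 in WT polyclonal libraries. B cells were represented by Ms4a1 alone, at 132 to 155 CPM in PERK-cKO allogeneic and 48.6 to 64.7 in WT allogeneic libraries against 3.94 to 10.4 and 3.49 to 4.70 in the PERK-cKO and WT polyclonal libraries. The NK cell marker Ncr1, 1 of 4 with placed counts, and the 3 of 6 erythroid markers with placed counts stayed under 4 CPM in every library, and 0 of 7 neutrophil markers had placed counts. In bulk samples, fewer T cells and less mitochondrial RNA per T cell cannot be told apart.

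Levels were compared between the genes per kb of gene length, as CPM scaled by TMM, which sets library sizes so that most entries do not differ. mt-Nd1 was highest in all 12 libraries. It reached 15400.2 ± 2343 CPM per kb (SD, n = 3) in WT allogeneic, 13770.1 ± 1214 (SD, n = 3) in PERK-cKO allogeneic, 7642 ± 1691 (SD, n = 3) in WT polyclonal and 8987 ± 1468 (SD, n = 3) in PERK-cKO polyclonal T cells. mt-Nd4 and mt-Nd2 came next and could not be ordered between themselves: mt-Nd4 was above mt-Nd2 in 6 of 12 libraries, which were the 6 allogeneic ones. mt-Nd5 followed and was below mt-Nd2 in all 12. Per kb, mt-Nd5 lay above mt-Nd6 in 11 of 12 libraries and mt-Nd6 above mt-Nd4l in 8, so neighbours at this point of the order differed little. mt-Nd3 was lowest in all 12, at 2285 ± 420.3 CPM per kb (SD, n = 3) in WT allogeneic and 1137 ± 335 (SD, n = 3) in WT polyclonal T cells. The full listed length was used, and pairs lost to nuclear copies or to overlap with a neighbour were not corrected for. The order is thus one of counts and need not be that of the RNA levels.

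**Figure D1:**
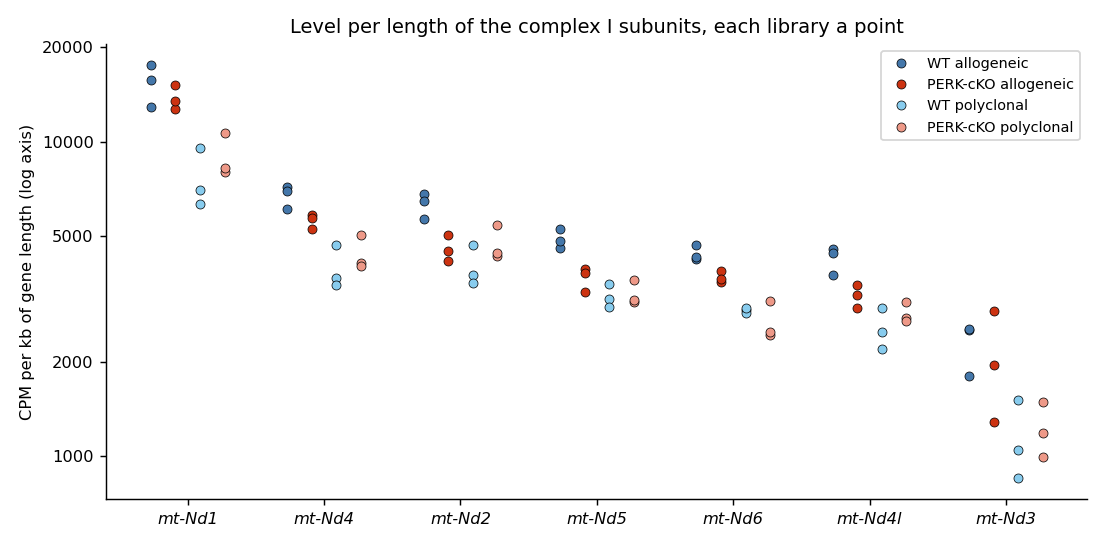
Level of each gene in CPM per kb of gene length (log axis), with 1 point for each library and colours for the 4 groups. Pairs lost to nuclear copies are not corrected for. mt-Nd1 stands above the other 6 genes in every group, and mt-Nd3 is lowest, with WT polyclonal libraries averaging 1137 CPM per kb.

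The first comparison asked how PERK deletion went with these transcripts after allogeneic stimulation. Of the 7 complex I genes, 5 were lower in PERK-cKO than in WT T cells and 0 were higher, at an adjusted p under 0.05 over all entries tested (quasi-likelihood test of edgeR). mt-Nd2 fell by 27.8%, the most, and mt-Nd6 fell by 16.1%, the least of those called. Over the whole table edgeR called 28.9% of entries. Of the 9467 tested, 12.2% were called lower and 16.7% higher. The median log2 fold change was −0.27 over the 7 genes and 0.00 over all entries. With library sizes set by 5 T cell marker genes in place of all entries, edgeR called 3 of the 7: mt-Nd2 at −0.37 (adjusted p = 0.00554), mt-Nd5 at −0.31 (adjusted p = 0.0175) and mt-Nd4l at −0.30 (adjusted p = 0.0338). On this scale 706 of the 9467 entries were called lower. The T cell markers moved apart themselves, with Thy1, which held most of their counts, at 0.051, Lck at −0.52 and Cd5 at −0.80 on the placed counts. Of the 6 other protein genes of mtDNA, edgeR and DESeq2 called 0, and 0 had an unadjusted p under 0.05 by edgeR.

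**Figure D2:**
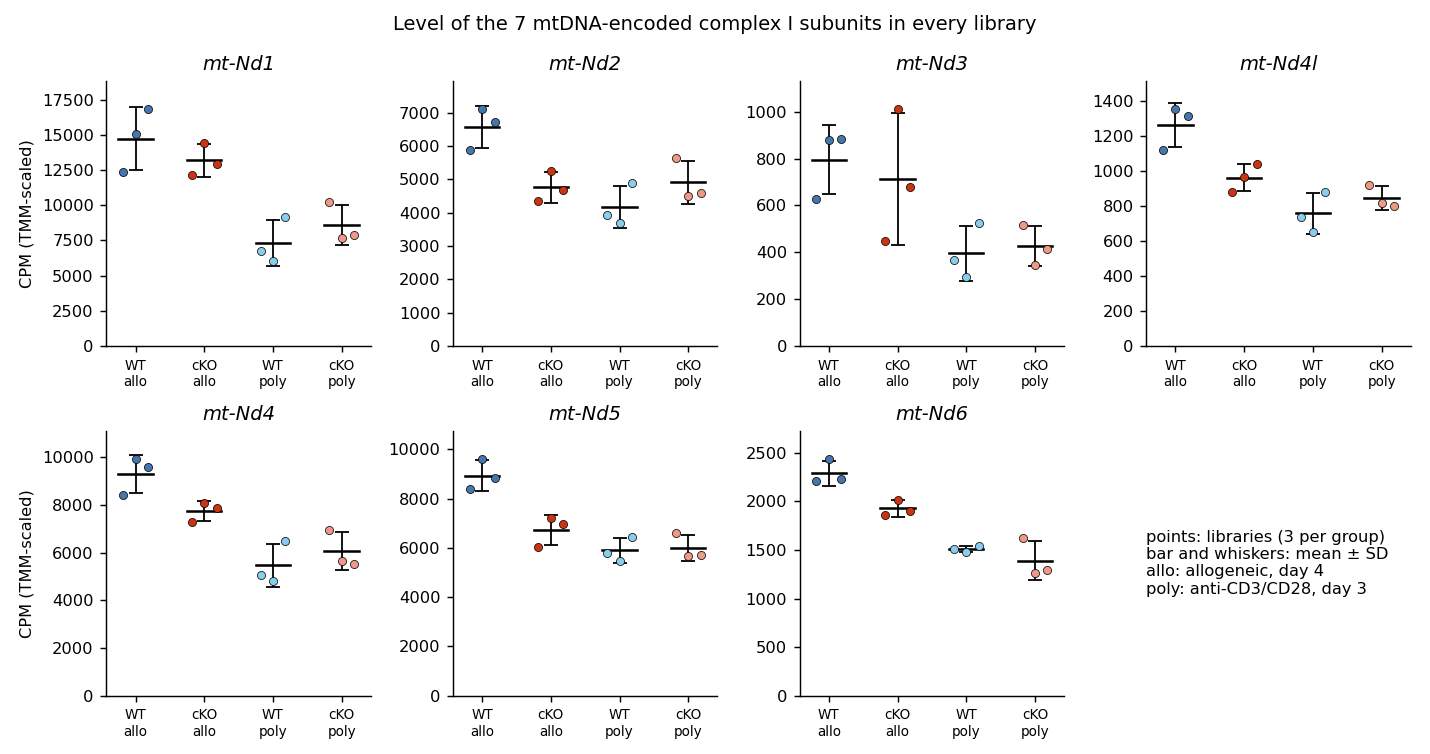
TMM-scaled CPM of each complex I gene, with 1 point for each library and the mean ± SD of the 3 libraries of a group. For mt-Nd2, mt-Nd4l, mt-Nd4, mt-Nd5 and mt-Nd6 the WT allogeneic libraries lie above all 3 PERK-cKO allogeneic libraries, while the polyclonal groups overlap for all 7 genes.

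Among the antiporter-like subunits, all 3 fell. mt-Nd2 had 5894, 7102 and 6730.3 CPM in the WT allogeneic and 4350.4, 5254 and 4678 CPM in the PERK-cKO allogeneic libraries. Every WT library was above every PERK-cKO library, with a log2 fold change of −0.47 (SE 0.0950, adjusted p = 0.000384) by edgeR. mt-Nd5, the largest of the 7 genes, had 8370.0, 9603 and 8821 CPM in WT and 6054, 7206 and 6967 CPM in PERK-cKO libraries. Again the groups did not overlap, and its log2 fold change was −0.41 (SE 0.0920, adjusted p = 0.00114) by edgeR. mt-Nd4 had 8415, 9914 and 9571 CPM against 7263, 8059 and 7858 CPM. These groups lay closer, the highest PERK-cKO library just under the lowest WT library, and the log2 fold change was −0.27 (SE 0.0895, adjusted p = 0.0231) by edgeR.

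Of the small subunits, mt-Nd4l and mt-Nd6 fell. mt-Nd4l had 1120.4, 1352 and 1317 CPM in WT and 881, 969 and 1039.5 CPM in PERK-cKO libraries, without overlap, and a log2 fold change of −0.40 (SE 0.0955, adjusted p = 0.00225) by edgeR. mt-Nd6, the gene of the opposite strand, had 2207, 2436 and 2228 CPM against 1859, 2020.0 and 1905 CPM, also without overlap. Its log2 fold change was −0.25 (SE 0.0866, adjusted p = 0.0286) by edgeR. For mt-Nd3 the PERK-cKO libraries were spread widely, at 448, 1009.9 and 678 CPM, around the WT libraries at 626, 878 and 882 CPM. That difference was within the spread, at a log2 fold change of −0.16 (SE 0.174, adjusted p = 0.539) by edgeR. mt-Nd1, at the ubiquinone site, had 12354, 15055 and 16804 CPM in WT and 12166, 14447 and 12921 CPM in PERK-cKO libraries. The groups overlapped, and its log2 fold change of −0.17 (SE 0.102, adjusted p = 0.247) by edgeR did not pass the threshold. For 5 of the 7 genes the groups did not overlap with PERK-cKO lower, against 18.1% of all entries tested.

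mt-Nd2, mt-Nd4l and mt-Nd5 were called with each library left out in turn, with log2 fold changes of −0.56 to −0.42, −0.50 to −0.34 and −0.48 to −0.34. The other members depended on single libraries, and mt-Nd4 and mt-Nd6 also on the filter. With at least 10 counts required in every library, edgeR did not call mt-Nd4, at −0.24 (adjusted p = 0.0741), or mt-Nd6, at −0.22 (adjusted p = 0.0707). mt-Nd4 was not called by edgeR without PERK-cKO replicate 1, at −0.23 (adjusted p = 0.0773), without WT replicate 2, at −0.23 (adjusted p = 0.109), or without WT replicate 3, at −0.26 (adjusted p = 0.0616). mt-Nd6 was not called by edgeR without PERK-cKO replicate 1, at −0.23 (adjusted p = 0.0761), PERK-cKO replicate 3, at −0.26 (adjusted p = 0.0644), or WT replicate 2, at −0.21 (adjusted p = 0.137). Conversely, edgeR called mt-Nd3 lower without PERK-cKO replicate 2, at −0.50 (adjusted p = 0.00769), and mt-Nd1 lower without WT replicate 1, at −0.30 (adjusted p = 0.0208), and mt-Nd3 turned to 0.075 without PERK-cKO replicate 1. The count of members called was 3 without PERK-cKO replicate 1 and without WT replicate 2. The macrophage, basophil and mast cell, and Y-linked signals given above differ between the same 2 groups of libraries, and their part in the lower values was not tested.

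The other mtDNA genes were set beside them. mt-Cytb, the mtDNA subunit of complex III, had a log2 fold change of −0.11 (SE 0.0978, adjusted p = 0.445) by edgeR and did not pass. The cytochrome oxidase genes were at −0.10 for mt-Co1, 0.14 for mt-Co2 and −0.049 for mt-Co3. The ATP synthase genes were at 0.045 for mt-Atp6 and −0.13 for mt-Atp8, so that 2 of these 6 values were above 0. mt-Rnr1, the small ribosomal RNA, was higher in PERK-cKO T cells, with a log2 fold change of 0.59 (SE 0.113, adjusted p = 0.000202) by edgeR. mt-Rnr2, the large one, was at 0.051 (edgeR adjusted p = 0.806). Of the 22 mitochondrial tRNA genes, 11 were tested, and 1 was lower after allogeneic and 2 were lower after polyclonal stimulation.

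The same genotypes were then compared after polyclonal stimulation. None of the 7 complex I genes was called, where edgeR called 29.5% of the 9328 entries tested. The genotypes overlapped for all 7, whereas 20.3% of all entries had PERK-cKO libraries all higher and 21.1% all lower. DESeq2 also called 0, and 1 of the 7, mt-Nd2, had an unadjusted edgeR p under 0.05. The log2 fold changes were above 0 for 6 of the 7 and below 0 for mt-Nd6, but below 0 for all 7 with library sizes set by the T cell markers, and their median was 0.17 against −0.0031 over all entries. Without a filter on low counts edgeR called mt-Nd1, at 0.26 (adjusted p = 0.00495), and mt-Nd2, at 0.27 (adjusted p = 0.00717), higher. In that fit 1404 of 22646 entries were called higher.

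mt-Nd2 had 3922, 3687 and 4889.7 CPM in WT polyclonal and 5652, 4507 and 4589 CPM in PERK-cKO polyclonal libraries. WT replicate 3 was above 2 of the PERK-cKO libraries, and the log2 fold change of 0.26 (SE 0.108, adjusted p = 0.0889) by edgeR did not pass. mt-Nd1 had 6726, 6069.8 and 9143 CPM against 10217, 7678 and 7907 CPM. WT replicate 3 and PERK-cKO replicate 1 were again the high libraries of their groups, and the log2 fold change was 0.25 (SE 0.131, adjusted p = 0.171) by edgeR. mt-Nd6 had 1511, 1477 and 1539 CPM in WT and 1623, 1262 and 1290.2 CPM in PERK-cKO libraries. Its log2 fold change was −0.10 (SE 0.0927, adjusted p = 0.462) by edgeR, with PERK-cKO replicate 1 above all WT libraries and the other PERK-cKO libraries below them. The remaining log2 fold changes were 0.18 for mt-Nd4l, 0.17 for mt-Nd4, 0.13 for mt-Nd3 and 0.040 for mt-Nd5, with adjusted p between 0.207 and 0.780 by edgeR.

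Single libraries decided this result, as did the filter on low counts. Without WT replicate 3, edgeR called 5 genes higher in PERK-cKO T cells: mt-Nd1 at 0.42 (adjusted p = 0.00277), mt-Nd2 at 0.37 (adjusted p = 0.00504), mt-Nd3 at 0.36 (adjusted p = 0.0287), mt-Nd4l at 0.28 (adjusted p = 0.0213) and mt-Nd4 at 0.29 (adjusted p = 0.0236). In that fit 1262 of 9668 entries were called higher. Without PERK-cKO replicate 1, mt-Nd6 was called lower by edgeR, at −0.23 (adjusted p = 0.0394). Without WT polyclonal replicate 1, the library rich in rRNA, 0 of the 7 were called. The scale mattered too: with library sizes set by the 5 T cell markers all 7 values were below 0 and edgeR called mt-Nd5, at −0.37 (adjusted p = 0.00194), and mt-Nd6, at −0.51 (adjusted p = 0.000199), lower. That scaling moved the median of all entries to −0.41, and 4080 of 9328 entries were called lower, so these 2 calls do not stand out. Among its markers Thy1 was at 0.63 and Cd5 at −0.58 on the placed counts. Of the other protein genes, mt-Cytb was higher, with a log2 fold change of 0.37 (SE 0.118, adjusted p = 0.0262) by edgeR, although its groups overlapped. That call was lost without PERK-cKO replicate 1, WT replicate 1 or WT replicate 2, and with T cell marker scaling 0 of these 6 genes were higher and 5 were lower. mt-Co1, the mtDNA protein gene with the most counts, was at −0.26 (edgeR adjusted p = 0.0882).

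**Figure D3:**
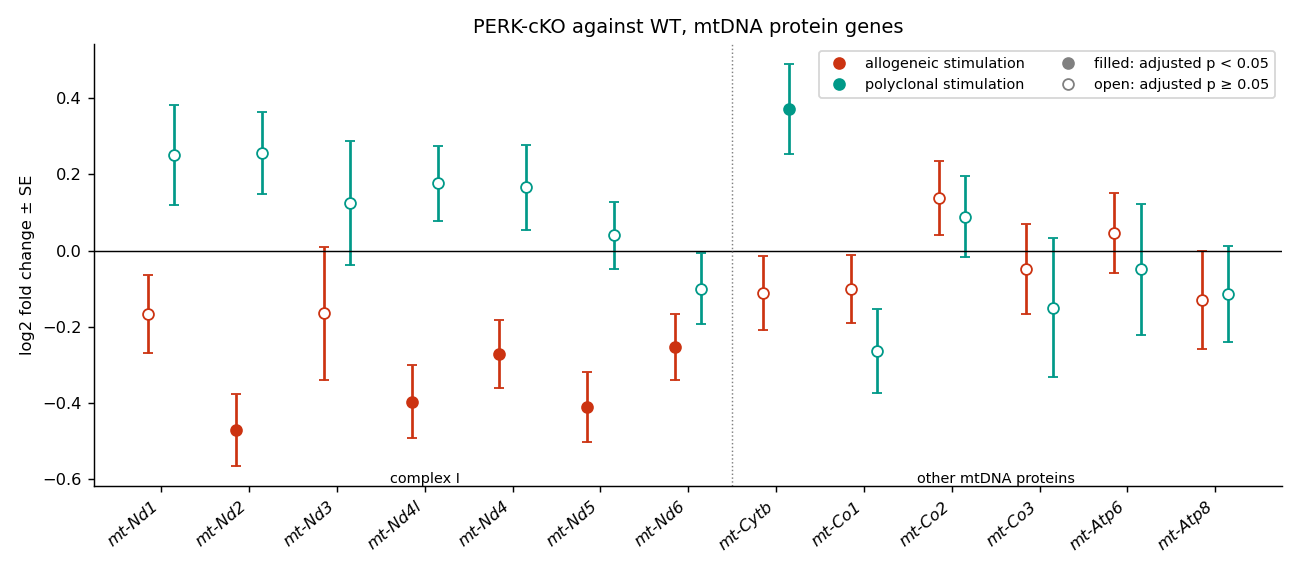
Log2 fold change of PERK-cKO against WT (point) with its SE (whisker) for the 13 mtDNA protein genes after allogeneic and polyclonal stimulation, filled where edgeR's adjusted p was under 0.05. The complex I genes lie between −0.47 and −0.16 after allogeneic and between −0.10 and 0.26 after polyclonal stimulation, where all 7 fall below 0 with T cell marker scaling.

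The difference between these genotype effects was tested itself, as the interaction of genotype and stimulation over the 12 libraries. It was called for 4 of the 7 genes, all with the lower value after allogeneic stimulation, though mt-Nd4 and mt-Nd5 turned to 0.074 and 0.059 with T cell marker scaling. Over all entries edgeR called 13.1% of 10454 in this direction and 15.9% in the other. The log2 difference was −0.70 (SE 0.154, adjusted p = 0.00103) for mt-Nd2 and −0.55 (SE 0.144, adjusted p = 0.00492) for mt-Nd4l by edgeR. For mt-Nd5 it was −0.43 (SE 0.129, adjusted p = 0.0137) and for mt-Nd4 −0.42 (SE 0.1496, adjusted p = 0.0388) by edgeR. The values of mt-Nd1 (−0.40), mt-Nd3 (−0.27) and mt-Nd6 (−0.13) did not pass, with edgeR adjusted p of 0.114, 0.544 and 0.479. Of the other mtDNA protein genes only mt-Cytb was called, at −0.46 (SE 0.167, adjusted p = 0.0409) by edgeR, and the other 5 lay between 0.0071 and 0.18. The call of mt-Cytb was lost in 7 of the 12 fits with 1 library left out (without PERK-cKO polyclonal replicate 1, WT polyclonal replicate 1 or 2, PERK-cKO allogeneic replicate 1 or 3, or WT allogeneic replicate 2 or 3). It was also lost with at least 10 counts required in every library, and with T cell marker scaling 0 of the 6 were called lower and 3 higher.

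mt-Nd2, mt-Nd4l and mt-Nd5 were called in this test with any single library left out. mt-Nd4 was not, at −0.35 without PERK-cKO polyclonal replicate 1, −0.40 without WT polyclonal replicate 1, −0.35 without WT polyclonal replicate 2, −0.39 without PERK-cKO allogeneic replicate 1 and −0.38 without WT allogeneic replicate 2 (edgeR adjusted p from 0.0713 to 0.104). With at least 10 counts required in every library, edgeR called 2 of the 7 lower, against 1109 of 7198 entries. mt-Nd5 and mt-Nd4 lost their calls under that filter. mt-Nd1 was called without PERK-cKO polyclonal replicate 2, at −0.53, WT polyclonal replicate 3, at −0.63, or WT allogeneic replicate 1, at −0.52. With library sizes set by the T cell markers the 4 calls were lost. mt-Nd2 was then at −0.22 (adjusted p = 0.282) by edgeR, mt-Nd6 was called in the other direction, at 0.35 (adjusted p = 0.0233), and the median of all entries moved from 0.072 to 0.55. The macrophage and monocyte sum was 1515 to 1715 CPM in PERK-cKO against 221 to 255 CPM in WT libraries after allogeneic stimulation, and 99.6 to 130.4 against 93.6 to 105 CPM after polyclonal stimulation. The basophil and mast cell sum and the Y-linked counts given above also set the allogeneic genotypes apart, and the part of these signals in the interaction was not tested.

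Stimulation was compared within each genotype. In WT T cells all 7 complex I genes were higher after allogeneic than after polyclonal stimulation, though mt-Nd5 and mt-Nd6 turned to −0.024 and −0.018 with T cell marker scaling. That scaling left 1 of the 7 called, mt-Nd1, and scaling to the other 6 mtDNA protein genes left 2, mt-Nd1 and mt-Nd3. Of the 9320 entries tested, 23.4% were called higher. No WT allogeneic library overlapped a WT polyclonal library for any of the 7, which held with the allogeneic group higher for 26.1% of all entries. The largest log2 fold changes were those of mt-Nd1, 1.02 (SE 0.131, adjusted p = 6.27e-06), and mt-Nd3, 1.02 (SE 0.158, adjusted p = 5.00e-05), by edgeR. mt-Nd4, mt-Nd4l and mt-Nd2 followed at 0.78, 0.75 and 0.67, and mt-Nd6 and mt-Nd5 at 0.61 and 0.61. All 7 were called with any single library left out.

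In PERK-cKO T cells 4 of the 7 were higher after allogeneic stimulation, against 25.5% of the 9695 entries tested: mt-Nd3 at 0.74 (SE 0.186, adjusted p = 0.00266), mt-Nd1 at 0.61 (SE 0.108, adjusted p = 8.44e-05), mt-Nd6 at 0.47 (SE 0.0977, adjusted p = 0.000501) and mt-Nd4 at 0.35 (SE 0.0987, adjusted p = 0.00620), by edgeR. Relative to the other 6 mtDNA protein genes all 4 calls were lost, with mt-Nd3 at 0.24, mt-Nd1 at 0.14, mt-Nd6 at −0.0093 and mt-Nd4 at −0.13. The libraries of mt-Nd3 overlapped between stimulations, its value was 0.40 without PERK-cKO allogeneic replicate 2, and DESeq2 did not call it (adjusted p = 0.0972). mt-Nd2, mt-Nd4l and mt-Nd5 were not called. mt-Nd2 had 4350.4, 5254 and 4678 CPM in PERK-cKO allogeneic and 5652, 4507 and 4589 CPM in PERK-cKO polyclonal libraries. The groups overlapped widely, at a log2 fold change of −0.050 (SE 0.102, adjusted p = 0.717) by edgeR. mt-Nd4l was at 0.18 and mt-Nd5 at 0.16, with edgeR adjusted p of 0.106 and 0.173. The 6 other mtDNA protein genes were all called higher in PERK-cKO T cells, from 0.40 for mt-Co1 to 0.70 for mt-Co3, and 5 of them in WT T cells. The 5 became 3 with DESeq2 and without WT allogeneic replicate 3, and 1 higher and 1 lower with T cell marker scaling.

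Without PERK-cKO polyclonal replicate 1 or PERK-cKO allogeneic replicate 1, edgeR also called mt-Nd4l in PERK-cKO T cells, at 0.24 and 0.25, and mt-Nd5, at 0.23 and 0.24. mt-Nd2 was not called in either fit, at 0.051 and 0.015. mt-Nd4 lost its call without PERK-cKO polyclonal replicate 2, at 0.29 (adjusted p = 0.0524), and replicate 3, at 0.28 (adjusted p = 0.0678), by edgeR. With T cell marker scaling only mt-Nd1 was called in WT T cells, at 0.39 (adjusted p = 0.0224) by edgeR, where the median of all entries was −0.65. WT allogeneic libraries differ from WT polyclonal libraries in the Y-linked genes as well, and by the design text in the day, and these cannot be told apart from the stimulus. Markers of other cells also moved with the stimulation. The basophil and mast cell sum was 132 to 148 against 3.49 to 6.88 CPM in WT and 2875 to 3071 against 28.6 to 33.8 CPM in PERK-cKO libraries. The macrophage and monocyte sum was 221 to 255 against 93.6 to 105 CPM in WT and 1515 to 1715 against 99.6 to 130.4 CPM in PERK-cKO libraries, and Ms4a1 was at least at 48.6 CPM in allogeneic and at most at 10.4 CPM in polyclonal libraries. Their part in the values of the 7 genes was not tested.

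**Figure D4:**
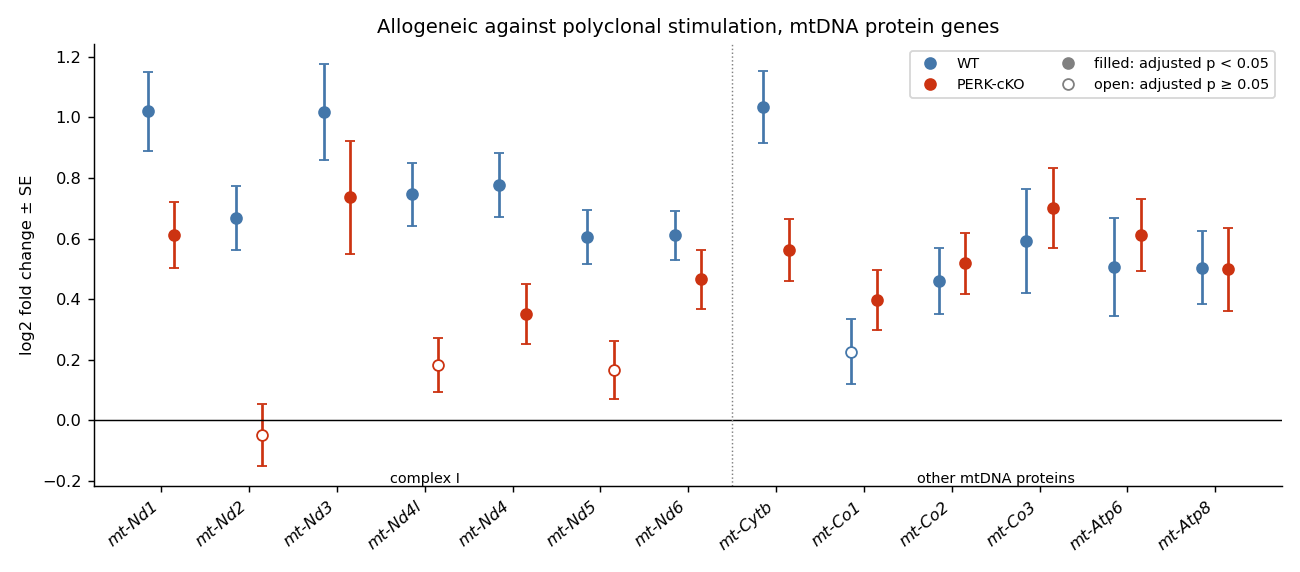
Log2 fold change of allogeneic against polyclonal stimulation (point) with its SE (whisker) in WT and PERK-cKO T cells for the 13 mtDNA protein genes, filled where edgeR's adjusted p was under 0.05. mt-Nd2 is at 0.67 in WT and −0.050 in PERK-cKO T cells, while mt-Co2, mt-Co3, mt-Atp6 and mt-Atp8 are close to each other in both genotypes.

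The share of the counts on the 13 mtDNA protein genes that fell on the 7 complex I genes needs no scaling between libraries. It was 32.3, 32.9 and 30.9% in the WT allogeneic and 28.2, 28.6 and 29.1% in the PERK-cKO allogeneic libraries. After polyclonal stimulation it was 26.6, 27.4 and 25.6% in WT and 30.2, 30.6 and 30.9% in PERK-cKO libraries. The genotypes did not overlap in either stimulation, with the PERK-cKO share lower after allogeneic and higher after polyclonal stimulation. mt-Co1 held a large part of the remainder, and its share of the 13 was 48.4 ± 0.694% (SD, n = 3) in WT polyclonal and 41.6 ± 0.458% (SD, n = 3) in PERK-cKO polyclonal T cells. After allogeneic stimulation mt-Co1 held 39.6 ± 0.401% (SD, n = 3) in WT and 40.4 ± 0.841% (SD, n = 3) in PERK-cKO T cells.

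Within the 7, mt-Nd2 separated all 4 groups. It held 17.4% to 17.5% of their counts in PERK-cKO polyclonal, 16.3% to 16.4% in WT polyclonal, 14.5% to 15.3% in WT allogeneic and 12.98% to 13.5% in PERK-cKO allogeneic libraries. No range overlapped another. The spread was widest in WT allogeneic libraries, at an SD of 0.419 percentage points against 0.0552 to 0.255 in the other groups. How many other entries separate the 4 groups was not counted. mt-Nd4, also an antiporter-like subunit, had overlapping ranges throughout: its share was 21.1% to 21.8%, 21.01% to 21.7%, 20.6% to 21.6% and 20.7% to 22.0% in the same order. mt-Nd1 made up 27.03% to 30.6% in WT polyclonal and 35.8% to 37.1% in PERK-cKO allogeneic libraries, the lowest and the highest group mean. mt-Nd5 ran the other way, at 21.6% to 24.3% in WT polyclonal and 18.3% to 19.3% in PERK-cKO allogeneic libraries. mt-Nd2 was singled out after its values were seen.

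**Figure D5:**
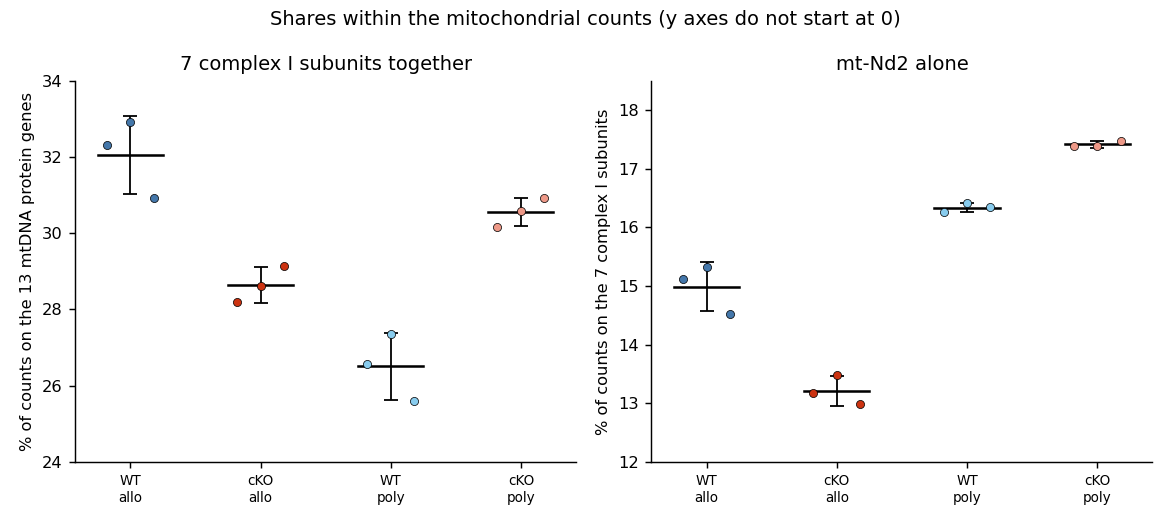
Left, percent of the counts on the 13 mtDNA protein genes that lie on the 7 complex I genes, and right, percent of the complex I counts that lie on mt-Nd2. Points are libraries and bars the mean ± SD of 3. The WT and PERK-cKO libraries do not overlap after either stimulation in either panel, and neither axis starts at 0.

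With libraries scaled to the other 6 mtDNA protein genes, a setting added after the data were seen, the log2 fold change of mt-Nd2 between genotypes after allogeneic stimulation was −0.42 (SE 0.106, adjusted p = 0.00102) by edgeR. mt-Nd5 and mt-Nd4l also passed, at −0.36 and −0.34 (edgeR adjusted p = 0.00397 and 0.0420), while mt-Nd4 and mt-Nd6 did not, and 5.76% of all entries were called lower. After polyclonal stimulation 0 of 7 passed on this scale, where 11.1% of all entries were called, and 2 of the 7 had an unadjusted p under 0.05. The interaction was called for 5 of 7, those called before and mt-Nd1 at −0.49 (edgeR adjusted p = 0.0459), where 6.95% of all entries were called in this direction. Between the stimulations, PERK-cKO T cells had lower mt-Nd2 (−0.53), mt-Nd5 (−0.32) and mt-Nd4l (−0.30) after allogeneic stimulation relative to these 6 genes (edgeR adjusted p from 5.70e-05 to 0.0444). As 44.7% of all entries were called lower on this scale, 3 of 7 is near the background. In WT T cells mt-Nd1 and mt-Nd3 were higher, at 0.62 and 0.63, against 5.75% of all entries called higher, and the other 5 did not pass.

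Most subunits of complex I are encoded in the nucleus and imported. Their entries were read as placed counts: an entry was counted toward the 1 GRCm38 gene whose exons its listed positions overlay by at least 50 bp. Of 37 nuclear subunit genes, 9 received placed counts. After allogeneic stimulation 0 of the 9 were called by edgeR, 1 of them, Ndufv1, had an unadjusted p under 0.05, and their median log2 fold change was −0.088, where 32.9% of the 4127 placed genes were called. After polyclonal stimulation 2 were higher and 1 lower, where 15.8% of 3959 placed genes were called higher and 15.7% lower. Ndufa10, an accessory subunit, reached 339 ± 5.24 CPM of placed counts (SD, n = 3) in the PERK-cKO polyclonal libraries, and the WT polyclonal value was 256 ± 8.32 (SD, n = 3). The groups did not overlap, and its log2 fold change was 0.39 (SE 0.0821, adjusted p = 0.00203) by edgeR. Ndufv1, which carries the NADH site, was at 0.38 (SE 0.115, adjusted p = 0.0198) by edgeR. Ndufv2, an iron-sulfur subunit beside it, had overlapping genotypes and was at −0.57 (SE 0.193, adjusted p = 0.0334) by edgeR.

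Complex I is put together by assembly factors, 4 of 18 of which had placed counts and 3 of which were tested. With allogeneic stimulation Ndufaf6 was lower in PERK-cKO than in WT T cells, at −0.57 (SE 0.172, adjusted p = 0.0121) by edgeR, and with polyclonal stimulation it was higher, at 0.50 (SE 0.145, adjusted p = 0.0155), without overlap in either. Ndufaf4 was higher after polyclonal stimulation, at 0.71 (SE 0.127, adjusted p = 0.000573) by edgeR, and at −0.17 (adjusted p = 0.220) after allogeneic stimulation. Of the genes that transcribe and copy mtDNA, 4 of 15 had placed counts. Mterf2, of the mitochondrial termination factor family, was higher after allogeneic stimulation, at 0.78 (SE 0.265, adjusted p = 0.0269) by edgeR, and Tfam and Polg were not called, at −0.45 and 0.16. Of the genes that process and degrade mitochondrial RNA, 6 of 20 had placed counts. Hsd17b10, a subunit of mitochondrial RNase P, was lower after polyclonal stimulation, at −0.53 (SE 0.113, adjusted p = 0.00227) by edgeR, and the other 5 were not called in either stimulation. Some of these genes rest on few counts, Tfam on 4 to 12 in an allogeneic library and Fastkd2 on 6 to 25 in a WT allogeneic library, and small changes were not detectable at this depth.

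The 7 genes moved together over the libraries. Across the 21 pairs of genes, Pearson's r of log2(CPM + 1) over 12 libraries was 0.741 to 0.977, with a median of 0.909. The points share their group, depth and scaling, and no test was made. Of 6928 entries with an average log2 CPM of at least 3, the 5 whose log2(CPM + 1) went most closely with log2 of the summed CPM of the 7 genes were those listed as Arhgef17 (r = 0.969), mt-Cytb (r = 0.964), Trip12 (r = 0.960), Adgrv1 (r = 0.960) and Zfr (r = 0.959), over 12 libraries. On GRCm38 the entries of Trip12 and Zfr overlay exons of those genes alone, and those of Arhgef17 and Adgrv1 overlay several genes, Mrpl48 and Lysmd3 with the most bases, so these symbols do not name 1 source. Among the other mtDNA protein genes r ranged from 0.786 for mt-Co1 to 0.904 for mt-Atp8 after mt-Cytb, and it was −0.112 for mt-Rnr1 and 0.342 for mt-Rnr2.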

How the data were processed

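Total RNA was isolated with TRIZOL from 12 T cell samples, and mRNA was fragmented and copied with random hexamers, per the labels and the study's methods. The authors counted read pairs per gene name over exons with featureCounts 2.0.1 on GENCODE M27 and deposited 1 table of raw counts, not normalized. The aligner is not given in the sources used here, and the submitters' processing notes name mm10. GENCODE M27 describes GRCm39, so the nuclear entries were laid, with positions unconverted, on GRCm38 exons (GENCODE M21), and an entry was kept as placed counts where it overlay exactly 1 gene by at least 50 bp. Chromosome M is the same in both and was used as listed. The counting defaults leave out pairs reported at several places or overlapping several genes, and strand was not used. What this cost single genes was not tested.

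Counts were filtered with filterByExpr, scaled by TMM and tested with edgeR 4.0.16 (quasi-likelihood, R 4.3.3) for each comparison, with a Benjamini-Hochberg adjusted p under 0.05 over all entries as the threshold. SEs are the log2 fold change divided by the square root of F. DESeq2 1.42.0, other scalings and filters, the placed counts, a replicate block and leaving out each library were alternatives, and scaling to the other mtDNA protein genes was added after the data were seen. The steps were tested on simulated data. Sequences were read from GENCODE M21 transcripts. Groups came from the labels, and intervals cover counting error only. The genes and lists were chosen with earlier results of these data known. Named nuclear genes were those of the lists that passed the test without overlap of the groups, and Ndufv2, Tfam, Polg and Fastkd2 were named after their values were seen.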

Additional observations from a re-analysis of the deposited data

Results flagged for a closer look

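Between the stimulations, 4 genotype effects differed by the interaction test of edgeR over 12 libraries. The effects below are from a separate fit for each stimulation and the differences from the fit of 12 libraries. They therefore need not subtract exactly. For mt-Nd2 the PERK-cKO effect was −0.47 after allogeneic and 0.26 after polyclonal stimulation, a difference of −0.70. For mt-Nd4l it was −0.40 and 0.18, a difference of −0.55. For mt-Nd5 it was −0.41 and 0.040, a difference of −0.43, and for mt-Nd4 −0.27 and 0.17, a difference of −0.42. With T cell marker scaling these differences were −0.22, −0.061, 0.059 and 0.074, and 0 of the 4 passed. Scaled to the other 6 mtDNA protein genes they were −0.80, −0.64, −0.52 and −0.51, and all 4 passed. The Y-linked signal of the WT allogeneic libraries cannot be told apart from their group in this test. The basophil and mast cell sum was 2875 to 3071 CPM in PERK-cKO and 132 to 148 CPM in WT libraries after allogeneic stimulation and 28.6 to 33.8 against 3.49 to 6.88 CPM after polyclonal stimulation, and its part was not tested.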

How the results depend on the processing

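In each range or series of counts the comparisons stand in the order of genotype after allogeneic stimulation, genotype after polyclonal stimulation, their difference, stimulation in WT and stimulation in PERK-cKO T cells. The members called numbered 5, 0, 4, 7 and 4, and 5, 0, 4, 7 and 3 with DESeq2, 5, 0, 4, 7 and 4 with relative log expression size factors, 5, 0, 4, 7 and 4 with library sizes alone and 5, 0, 4, 7 and 4 on the placed counts. With all 12 libraries in one fit the 4 comparisons of groups gave 4, 0, 7 and 4, and mt-Nd4 after allogeneic stimulation was not called, at −0.27 (adjusted p = 0.0644) by edgeR. Leaving out 1 library at a time gave 3 to 6, 0 to 5, 3 to 5, 7 in each fit and 3 to 6. The replicate numbers gave no sign of pairing the libraries, though so few pairs cannot exclude it. The correlation of deviations between libraries of the same number was −0.0950 to 0.138 over 6 pairs with only 1 above 0.1. Of 12 libraries, 4 correlated best with their own number. With the replicate block 5, 0, 4, 7 and 4 members and 2846, 2460, 2888, 4472 and 4372 entries were called, against 2734, 2750, 3034, 4346 and 4483 entries without it.

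With library sizes set by the T cell markers 3, 2, 1, 1 and 3 members were called, and 4323 entries in the polyclonal genotype comparison. The polyclonal genotype values then turned to −0.16 for mt-Nd1, −0.16 for mt-Nd2, −0.29 for mt-Nd3, −0.24 for mt-Nd4l, −0.25 for mt-Nd4 and −0.37 for mt-Nd5. The difference of genotype effects turned to 0.096 for mt-Nd1, 0.24 for mt-Nd3, 0.074 for mt-Nd4, 0.059 for mt-Nd5 and 0.35 for mt-Nd6, and stimulation in WT T cells to −0.024 for mt-Nd5 and −0.018 for mt-Nd6. This scaling also moved the share of calls that were higher, from 57.7%, 50.8%, 54.7%, 50.2% and 55.2% to 72.0%, 5.62%, 92.0%, 8.98% and 42.8%. The median over all entries was then 0.091, −0.41, 0.55, −0.65 and −0.14. Scaled to the other 6 mtDNA protein genes, 3, 0, 5, 2 and 3 members were called, with 1035 entries in the polyclonal genotype comparison and 1726 for the difference, and the share of calls that were higher was 72.7%, 53.2%, 57.9%, 14.4% and 22.0%. In PERK-cKO T cells the values between stimulations then turned to −0.30 for mt-Nd4l, −0.13 for mt-Nd4, −0.32 for mt-Nd5 and −0.0093 for mt-Nd6. The cause of the changes under the T cell scaling was not tested.

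Leaving out 1 library also turned the sign of mt-Nd3 after allogeneic stimulation (−0.50 to 0.075), of mt-Nd3 (−0.049 to 0.36) and mt-Nd5 (−0.044 to 0.089) between genotypes after polyclonal stimulation, and of mt-Nd2 between stimulations in PERK-cKO T cells (−0.13 to 0.051). Requiring at least 10 counts in every library left 3, 0, 2, 7 and 4 members called, and testing without a filter 5, 2, 5, 7 and 4. A log2 fold change beyond 1 as well left 0, 0, 0, 2 and 0 members and 1115, 686, 1474, 1670 and 1850 entries, and the placed counts gave 1357, 1250, 1493, 1947 and 2145 genes called, of fewer tested by construction. Of the nuclear genes in the 4 lists, 2 and 6 were called between genotypes on the placed counts and 4 and 14 on the entries as listed. With 3 libraries a group and 3132702 to 4631908 counts in each, the share of counts on the 7 genes had a counting error small beside the spread between libraries. An alternative gene length over stretches without nuclear copies was not run.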

Other observations

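The mitochondrial rRNAs together took 13.6, 4.08 and 4.56% of the chromosome M counts in the WT polyclonal and 5.14, 6.46 and 3.82% in the PERK-cKO polyclonal libraries. After allogeneic stimulation they took 4.21, 4.43 and 4.41% in WT and 4.62, 5.31 and 6.51% in PERK-cKO libraries. Over all counts, the 7 complex I genes together reached 3.97, 4.49 and 4.42% in WT allogeneic, 3.26, 3.73 and 3.55% in PERK-cKO allogeneic, 2.22, 2.43 and 2.99% in WT polyclonal and 3.19, 2.66 and 2.80% in PERK-cKO polyclonal libraries.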
